A study of Mus musculus with 6 samples.

Results

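The genes described here are 10 genes of transforming growth factor beta (TGF-beta) signalling, taken by mouse symbol from a table of gene counts in regulatory T cells (Treg). They are the ligand genes Tgfb1 and Tgfb3, the receptor genes Tgfbr1 and Tgfbr2, the signal transducer genes Smad2, Smad3, Smad4 and Smad7, and the co-repressor genes Ski and Skil. All 10 were found among the 37991 genes of the table, and all 10 passed the filter on low counts in each fit below. The study sequenced mRNA of Treg, which express Foxp3 and restrain immune responses, sorted from mouse spleen as YFP+ cells after CD4+ T cells had been enriched. A wild type, KAP1 sufficient group and a KAP1 deficient group had 3 libraries each. The groups were set side by side to see what the loss of KAP1, also named TRIM28, does to Treg transcripts. KAP1 is a co-repressor recruited to chromatin by zinc finger proteins with a KRAB domain.

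The labels give the strain background as C57BL/6 for 4 libraries, and as C57BL/7 and C57BL/8 for deficient replicates 2 and 3. The age of the mice, the promoter behind the YFP, the way KAP1 was removed and whether libraries came from separate animals are not stated in the labels, so the p-values below speak only for the spread among these libraries, which may be technical. The sufficient libraries, replicates 1 to 3, are called S1, S2 and S3 below, and the deficient ones D1, D2 and D3.

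TGF-beta is made as a precursor whose cleaved prodomain keeps the ligand latent, and Treg hold this latent complex on their surface. The freed ligand brings the type II receptor TGFBR2 and the type I receptor TGFBR1 together, and TGFBR1 phosphorylates SMAD2 and SMAD3, which enter the nucleus with SMAD4. SMAD7 blocks the receptor, SKI and SnoN (the product of Skil) repress SMAD target genes, and Smad7 and Skil are themselves induced by the pathway, which makes them feedback inhibitors. In Treg the pathway is known for its part in Foxp3 induction and for the suppression of other T cells.

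The promoters of 2 members are shown because they belong to the ligand and receptor genes that passed the test below and that the RefSeq promoter table (GRCm38.p6, the assembly of mm10) holds. That table matched 5 of the 10 members, Tgfb1, Tgfbr1, Tgfbr2, Smad3 and Ski. Each run is the 250 bases before the start on the plus strand, with the SMAD box AGAC or its reverse complement GTCT in capitals.
Tgfb1, chr7:25686752-25687001: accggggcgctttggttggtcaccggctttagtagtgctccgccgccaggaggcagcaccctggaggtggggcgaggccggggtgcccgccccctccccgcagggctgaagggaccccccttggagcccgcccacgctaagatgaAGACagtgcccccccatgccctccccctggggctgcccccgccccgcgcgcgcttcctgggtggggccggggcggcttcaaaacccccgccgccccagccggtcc
Tgfbr1, chr4:47352972-47353221: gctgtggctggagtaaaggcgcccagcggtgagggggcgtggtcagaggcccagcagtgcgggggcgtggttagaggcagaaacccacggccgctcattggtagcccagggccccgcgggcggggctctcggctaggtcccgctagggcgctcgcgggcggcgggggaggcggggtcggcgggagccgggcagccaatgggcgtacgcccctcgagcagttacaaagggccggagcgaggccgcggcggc
Tgfbr1, further window, chr4:47385966-47386215: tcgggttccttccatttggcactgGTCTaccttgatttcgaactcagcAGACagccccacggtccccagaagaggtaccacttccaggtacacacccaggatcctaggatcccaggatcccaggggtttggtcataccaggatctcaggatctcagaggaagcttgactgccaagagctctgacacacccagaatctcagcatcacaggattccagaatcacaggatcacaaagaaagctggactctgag
Tgfb1 holds 1 SMAD box in these bases, the first window of Tgfbr1 none and its further window 2. Of the 32851 windows of this length in the table, 82.9% hold at least 1 box on either strand. The palindrome GTCTAGAC, which contains the box on both strands, is in 0.167% of windows and in none of the 6 windows of the 5 members. GC content was 75.2% for Tgfb1 and 74.8% and 52.8% for the first and further window of Tgfbr1, against a median of 52.4% over all windows.

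Trim28, the gene of KAP1, went against the label in 2 libraries. It stood at 244, 244 and 21.2 CPM (the count scaled to the library total) in S1, S2 and S3, and at 23.0, 18.6 and 231 CPM in D1, D2 and D3. Trim28 is thus low in S3 and high in D3. Each result is therefore given for all 6 libraries as labelled and also for S1 and S2 against D1 and D2, called the 4 concordant libraries because their Trim28 level fits their label. Labels were never exchanged. Totals were 9954344 to 10994745 counts per library. The Treg markers (7 genes, Foxp3 and Il2ra among them) summed to 4283 to 4549 CPM. Lists for other cells summed to 9.42 to 15.9 CPM for B cells, 2.51 to 4.56 for platelets, 1.67 to 3.27 for myeloid cells, 10.2 to 14.8 for CD8 T cells, 4.62 to 11.9 for natural killer cells, 0.397 to 1.58 for stroma and 0 to 0.182 for erythroid cells. The markers Ppbp, Pf4, Gp9, Gp1bb, Ncr1, Col3a1 and Alas2 had 0 counts in every library. The B cell sum (5 genes) was 14.2, 15.03 and 15.9 CPM in S1, S2 and D3 and 9.42, 10.2 and 12.1 in S3, D1 and D2, and the natural killer sum (3 genes) was 7.03, 4.62 and 4.73 against 9.999, 11.9 and 11.5. Klrb1c alone carried the higher natural killer sum, at 28, 26 and 24 against 90, 109 and 96 counts, whereas Eomes went the other way, at 43, 21 and 28 against 13, 11 and 18 counts, and Ncr1 was at 0. The mitochondrial share was 1.61% to 2.097% in S1, S2 and D3 and 1.33% to 1.41% in the others. These values move with Trim28, and their part in the results below was not tested.

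Per kilobase of exon, Ski was the most abundant member in all 6 libraries, at 73.5 ± 1.82 RPKM (CPM per kilobase of exon; SD over the 6 libraries, as for the levels in this paragraph). Its range of 70.2 to 75.7 RPKM did not overlap that of the next gene. Tgfbr2 (43.8 ± 1.27), Tgfb1 (40.0 ± 4.20), Smad7 (37.6 ± 4.73), Smad4 (34.8 ± 2.61), Skil (31.7 ± 5.16) and Tgfbr1 (28.8 ± 2.64) followed, and in this run each gene's range overlapped that of its neighbour. Smad3 (19.0 ± 1.06) lay below Tgfbr1 without overlap, Smad2 at 6.37 ± 0.711 below Smad3, and Tgfb3 at 0.669 ± 0.389 RPKM was the lowest. Between the 2 receptor-activated SMAD genes, Smad3 was therefore the more abundant per kilobase in 6 of 6 libraries. Between the co-repressor genes, Ski was above Skil in 6 of 6.

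**Figure D1:**
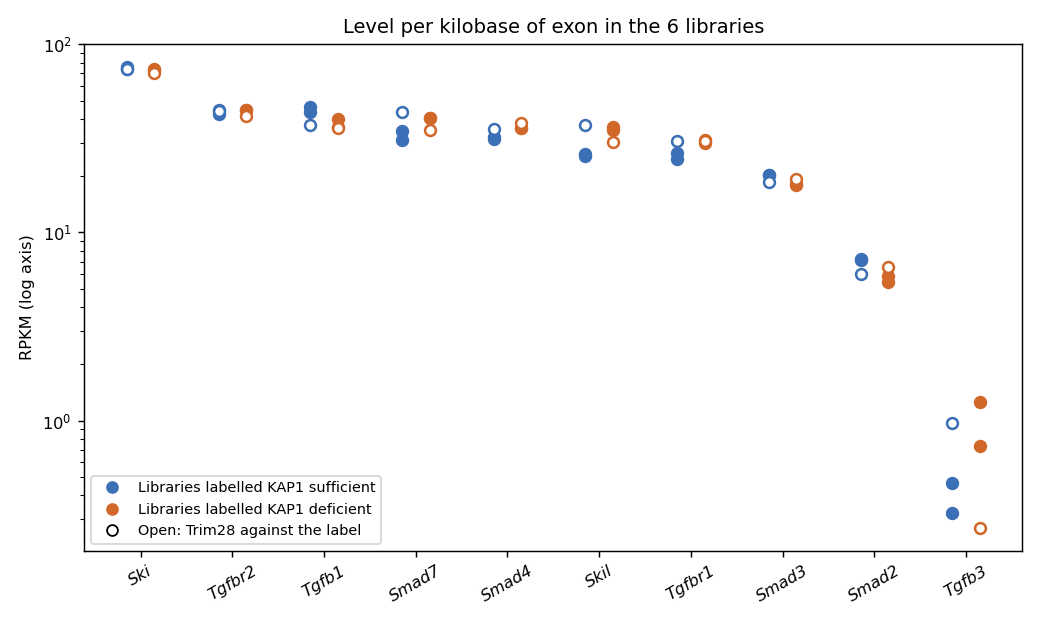
Levels of the 10 genes per kilobase of exon (RPKM, log axis), ordered by mean, with 1 point per library, sufficient in blue and deficient in orange, and open points for S3 and D3, where Trim28 goes against the label. Ski lies at 70.2 to 75.7 RPKM, above every other gene, and Tgfb3 at 0.269 to 1.247 RPKM below every other.

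With all 6 libraries as labelled, 0 of the 10 genes passed the edgeR quasi-likelihood test at an adjusted p under 0.05, where 2 of 12158 genes tested did (0.0165%). Smad4 alone of the members had an unadjusted p under 0.05 by edgeR. DESeq2 also called 0 members, where 6 of 18640 genes with a p-value passed. The median log2 fold change of the members was 0.04 (deficient minus sufficient), against 0.00 over all genes tested. In the 4 concordant libraries, 7 of the 10 passed, where 2114 of 12183 genes did (17.4%). Apart from Tgfb3, the members had mean counts of 575 to 4196 per library, and the share among genes of like level was not computed. Tgfb3, Tgfbr1, Smad4, Smad7 and Skil were higher in D1 and D2, where 9.96% of all genes were called higher, and Tgfb1 and Smad2 were lower, where 7.39% were. Tgfbr2, Smad3 and Ski did not pass. The members' median log2 fold change was 0.11 in the 4 libraries, against 0.00 for all genes. With DESeq2's Wald test on the same 4 libraries only Tgfbr1, Smad7 and Skil passed, where 942 of 17899 genes with a p-value did. In RNA from pooled sorted cells, fewer cells with a transcript and less of it per cell cannot be told apart. Each group of the 4 held 2 libraries, so the spread behind these tests rests on few values.

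**Figure D2:**
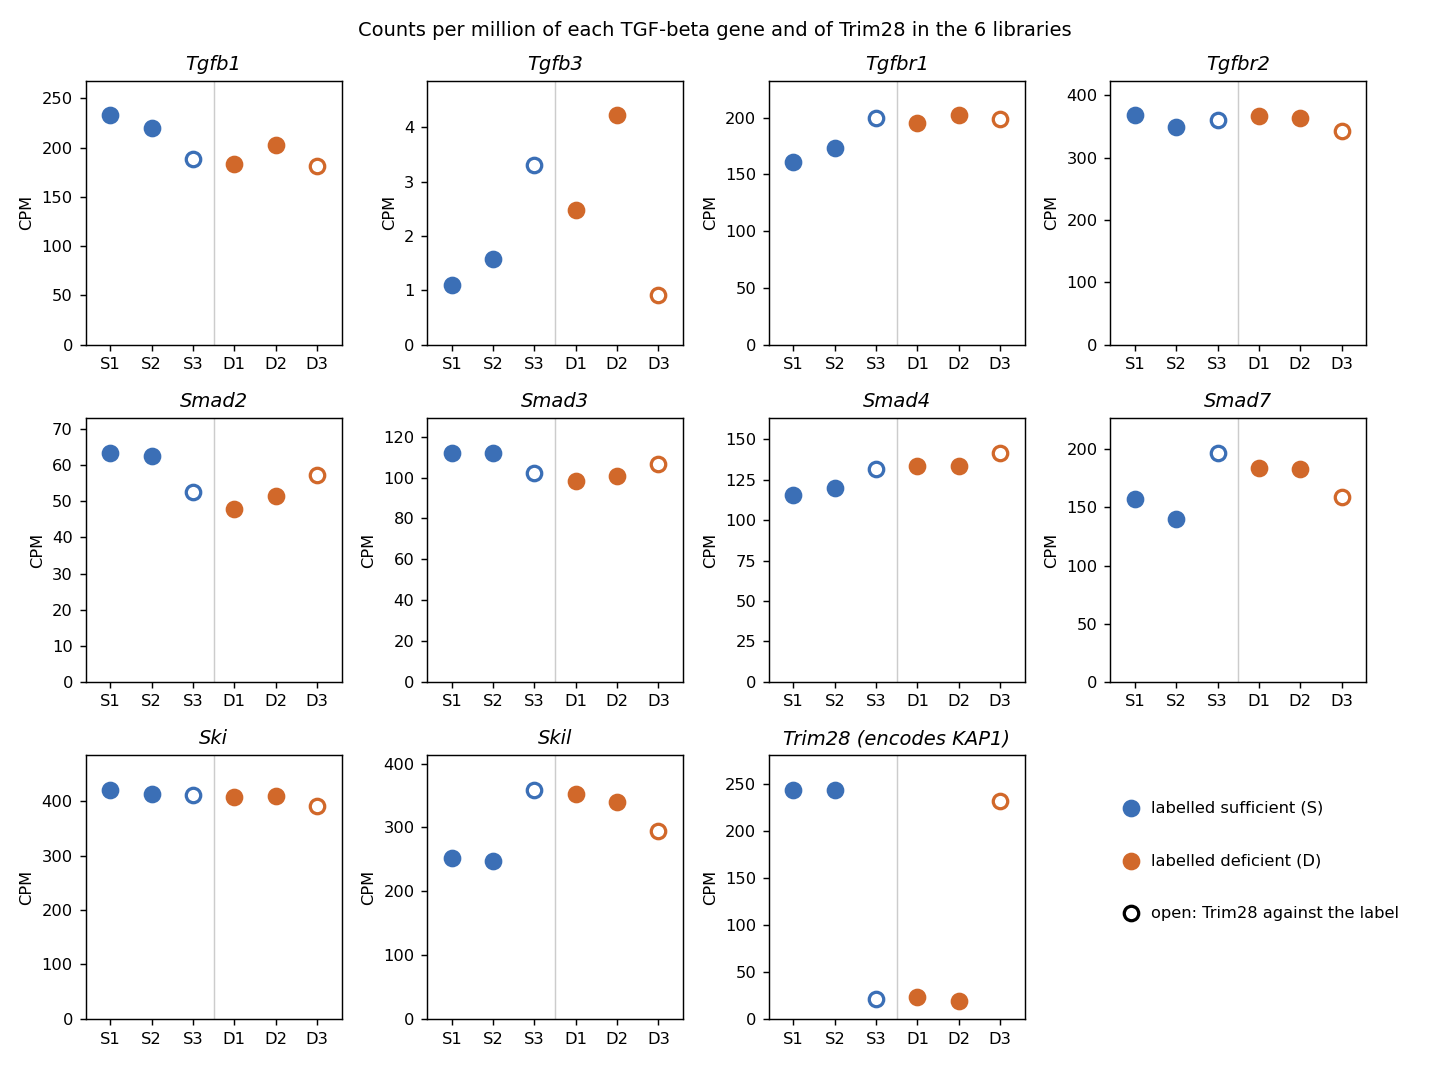
CPM of each gene and of Trim28 in the 6 libraries (S1 to S3 sufficient, D1 to D3 deficient), 1 point per library, on axes that start at 0. Skil lies at 340 to 359 CPM in S3, D1 and D2 and at 248 to 294 in the others, and Ski at 391 to 421 in all 6.

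Among the ligand genes, Tgfb1 fell and Tgfb3 rose in the 4 libraries. Tgfb1 (ENSMUSG00000002603, chromosome 7, 25687002 to 25705077, mm10 as for all positions) encodes the main TGF-beta isoform of T cells. It was counted at 233, 220 and 188 CPM in S1, S2 and S3 and at 184, 203 and 181 in D1, D2 and D3. S1 and S2 were the 2 highest libraries, and S3 lay within the range of the deficient ones, so the labelled groups overlapped. The log2 fold change of Tgfb1 was -0.22 ± 0.06 (SE) in the 4 libraries (edgeR adjusted p = 0.0155) and -0.18 ± 0.08 over all 6 (adjusted p = 0.651). Its call was lost without S1 (-0.18) and without D1 (-0.16), and over all 6 it was gained without S3 (-0.26, adjusted p = 0.0339).

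Tgfb3 (ENSMUSG00000021253, chromosome 12, 86056745 to 86079041), another ligand of the same receptors, was near the detection limit. It had 11, 16 and 34 counts in S1, S2 and S3 and 25, 42 and 10 in D1, D2 and D3, or 1.09, 1.57, 3.30, 2.48, 4.22 and 0.910 CPM. The 3 libraries with low Trim28 (S3, D1 and D2) were the 3 highest. The exact 95% Poisson intervals, which cover counting error only, were 0.898 to 2.55 CPM for S2 and 1.60 to 3.66 CPM for D1, so these 2 intervals overlapped. The log2 fold change was 1.33 ± 0.36 in the 4 libraries (2.51-fold, edgeR adjusted p = 0.0192), the largest among the 10 genes, and 0.33 ± 0.60 over all 6 (adjusted p = 0.895). Its call was lost without S1 (1.09) and without D2 (0.90), and over all 6 the sign turned without D2 (-0.24). Reads of 2 antisense transcripts that overlap exons of Tgfb3 by 163 and 257 bases cannot be told from it unless counting used strand. Tgfb1 and Tgfb3 moved apart, yet Tgfb1 stayed the far more abundant per kilobase, at 35.9 to 46.2 against 0.269 to 1.247 RPKM.

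The receptor genes differed from each other. Tgfbr1 (ENSMUSG00000007613, chromosome 4, 47353222 to 47414931), which encodes the kinase that phosphorylates SMAD2 and SMAD3, stood at 161, 173 and 199.8 CPM in S1, S2 and S3 and at 195, 202 and 199 in D1, D2 and D3. Only S1 and S2 were low, and the other 4 libraries lay at 195 to 202 CPM. In the 4 libraries Tgfbr1 rose by 0.26 ± 0.05 on the log2 scale (1.20-fold) with an edgeR adjusted p of 0.00429, and it passed without any single library (0.21 to 0.30). Over all 6 the value was 0.16 ± 0.08 (adjusted p = 0.654), and 0.25 without S3 (adjusted p = 0.019). Tgfbr2 (ENSMUSG00000032440, chromosome 9, 116084293 to 116175360), the receptor that binds ligand first, stood at 368, 349 and 360.4 CPM in the sufficient and 367, 364 and 342 in the deficient libraries, with full overlap. Its log2 fold change was 0.03 ± 0.05 in the 4 libraries (edgeR adjusted p = 0.717) and -0.01 ± 0.06 over all 6 (adjusted p = 0.977).

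**Figure D3:**
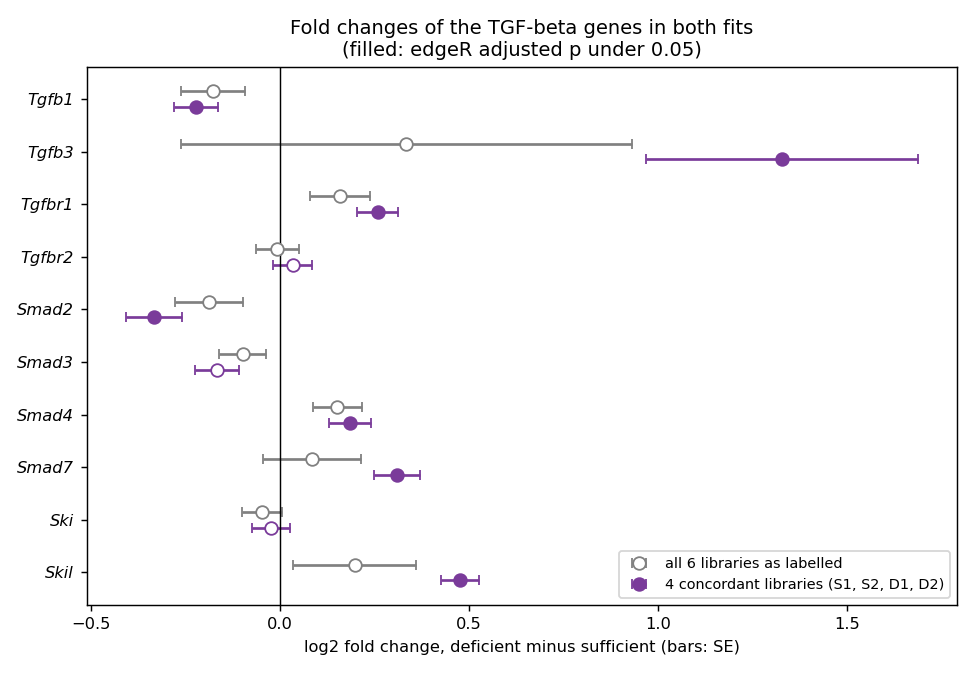
Log2 fold change (deficient minus sufficient) of each gene with its SE, for all 6 libraries as labelled (grey) and the 4 concordant libraries (purple), filled where the edgeR adjusted p was under 0.05. No grey point is filled, and 7 purple points are, from -0.33 for Smad2 to 1.33 for Tgfb3.

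Both receptor-activated SMAD genes were lower in D1 and D2, and Smad2 passed the test. Smad2 (ENSMUSG00000024563, chromosome 18, 76241580 to 76310963) stood at 63.5, 62.5 and 52.6 CPM in S1, S2 and S3 and at 48.0, 51.6 and 57.4 in D1, D2 and D3. S1, S2 and D3 were the 3 highest libraries, so values ordered by Trim28 did not overlap, whereas the labelled groups did. Its log2 fold change was -0.33 ± 0.07 in the 4 libraries (edgeR adjusted p = 0.00599, -0.28 to -0.38 without single libraries, all passing) and -0.19 ± 0.09 over all 6 (adjusted p = 0.653). With DESeq2 the call in the 4 libraries was lost (-0.34, adjusted p = 0.0779). Smad3 (ENSMUSG00000032402, chromosome 9, 63646767 to 63757994) had 112, 112 and 102 CPM in the sufficient and 98.5, 101 and 106 CPM in the deficient libraries, in the same order as Smad2. It did not pass in the 4 libraries (-0.17 ± 0.06, edgeR adjusted p = 0.0627), nor over all 6 (-0.10 ± 0.06, adjusted p = 0.673), and it passed in the 4 libraries with upper-quartile scaling (-0.20, adjusted p = 0.0263).

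Smad4 (ENSMUSG00000024515, chromosome 18, 73639009 to 73703780), the partner shared by all receptor-activated SMADs, did not overlap between the labelled groups, but only narrowly. It stood at 116, 119.7 and 132 CPM in S1, S2 and S3 and at 134, 133 and 142 in D1, D2 and D3, so every deficient library was above every sufficient one. S3, at 131.6 CPM, lay close below D2 at 133.2 and apart from S1 and S2. The log2 fold change was 0.19 ± 0.06 in the 4 libraries (edgeR adjusted p = 0.0316) and 0.15 ± 0.06 over all 6 (adjusted p = 0.632). In the 4 libraries the call was lost without each single library (0.17 to 0.20) and with upper-quartile scaling (0.15, adjusted p = 0.0637), and over all 6 it was gained without S3 (0.21, adjusted p = 0.0426).

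Of the inhibitors of the pathway, Smad7 and Skil rose in the 4 libraries, while Ski did not pass. Smad7 (ENSMUSG00000025880, chromosome 18, 75367529 to 75395935) stood at 157, 140.3 and 197 CPM in S1, S2 and S3 and at 184, 183 and 159 in D1, D2 and D3. The 3 libraries with low Trim28 were the 3 highest, and D3 lay beside S1. Smad7 rose by 0.31 ± 0.06 log2 units in the 4 libraries (1.24-fold, edgeR adjusted p = 0.00278, 0.22 to 0.40 without single libraries, all passing). Over all 6 it was 0.08 ± 0.13 (adjusted p = 0.878) and turned to -0.02 without S2.

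Skil (ENSMUSG00000027660, chromosome 3, 31095058 to 31122577) stood at 252, 248 and 359 CPM in S1, S2 and S3 and at 352, 339.8 and 294 in D1, D2 and D3. The libraries with low Trim28 were again the 3 highest, at 340 to 359 CPM, and D3 lay between them and S1 and S2. The rise of Skil in the 4 libraries, 0.48 ± 0.05 on the log2 scale (1.39-fold), had the smallest adjusted p of the 10 genes (edgeR adjusted p = 1.34e-05), and it passed without any single library (0.45 to 0.50). Over all 6 the log2 fold change was 0.20 ± 0.16 (adjusted p = 0.755), and 0.39 without S3 (adjusted p = 0.019). Its paralog Ski (ENSMUSG00000029050, chromosome 4, 155154075 to 155222592) stood at 421, 413 and 412 CPM in the sufficient and 408, 409 and 391 in the deficient libraries. Each sufficient library was above each deficient one, but the log2 fold change of Ski was only -0.05 ± 0.05 over all 6 (edgeR adjusted p = 0.814) and -0.02 ± 0.05 in the 4 libraries (adjusted p = 0.792).

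Against the labels, values of 2 of the 10 genes did not overlap between the groups, Smad4 and Ski, where 12.8% of all genes tested did not. Between the 3 libraries with high Trim28 (S1, S2 and D3) and the 3 with low Trim28 (S3, D1 and D2), values of 5 genes did not overlap, where 26.4% of all genes did not. Tgfb3, Smad7 and Skil were higher with low Trim28, and Smad2 and Smad3 lower. This is a description, since these libraries were set apart by a measured gene, and no mean or test was taken over them. The 2 libraries that the 4-library fit did not use were also placed between the means of S1 and S2 and of D1 and D2, on the scale of log2(CPM + 0.1). S3 lay nearer to D1 and D2 for 7 of the 7 genes called in the 4 libraries, as it did for 91.3% of all 2114 called genes. D3 lay nearer to S1 and S2 for 4 of the 7, where 44.9% of all called genes did. Those were Tgfb3, Smad7 (31.1% of the way to D1 and D2), Smad2 (39.7%) and Skil, which at 49.996% lay midway. For Tgfb1, Tgfbr1 and Smad4, D3 lay with or beyond D1 and D2, at 140%, 102% and 149% of the way. The changes of these 3 genes in the 4 libraries were thus not ones in which D3 went with its Trim28 level.

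In the authors' deposited table, 829 of 12072 genes with an adjusted p passed at 0.05 (6.87%), and 3 of the 10 were among them. Its column headers give no direction. Trim28 is positive there, so positive values are read as higher on the side with more Trim28. The authors' deposited table gives log2 fold changes of -0.39 for Skil (adjusted p = 2.46e-07), -0.30 for Smad7 (0.00038) and -0.39 for Tgfb3 (0.0264). For Smad2 the authors' deposited table gives 0.20 (adjusted p = 0.107), for Tgfbr1 -0.16 (0.21), for Tgfb1 0.12 (0.514) and for Smad4 -0.07 (0.746). Which libraries stood on each side of it is not stated. For Trim28 the authors' deposited table gives 3.11 ± 0.08 (SE). The 6 libraries as labelled gave -0.90 ± 1.46 (deficient minus sufficient, edgeR adjusted p = 0.889) and the 4 concordant ones -3.54 ± 0.08. The deposited value is thus not that of the 6 libraries as labelled. The authors' deposited table also differs in mean level from the counts used here for some genes, at 708 against a mean of 575 counts for Smad2. It describes the same study and is no independent support for the values above.

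The pathway around these 10 genes was described by a list of 71 others, of which 52 were tested over all 6 libraries and 53 in the 4. Over all 6, 0 of 52 passed the edgeR test and 5 had an unadjusted p under 0.05. In the 4 libraries 9 were higher, 5 lower and 39 did not pass, 26.4% called against 17.4% of all genes, with a median log2 fold change of 0.03.

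Of 12 genes for the latent complex and its activation 5 were tested in the 4 libraries and 2 were called higher, where 9.96% of all genes were. Furin, which encodes the protease that cleaves the TGF-beta precursor, stood at 133, 122 and 161 CPM in S1, S2 and S3 and at 164, 175 and 121 in D1, D2 and D3, high where Trim28 was low. The rise in the 4 libraries was 0.42 ± 0.06 in log2 units (edgeR adjusted p = 0.000243), and over all 6 the value was 0.14 ± 0.17 (adjusted p = 0.833). Itgb8, whose integrin frees latent TGF-beta on Treg, stood at 51.2, 56.6 and 57.7 CPM in the sufficient and 72.3, 65.0 and 76.2 in the deficient libraries, with no overlap by label. Its log2 fold change was 0.36 ± 0.08 in the 4 libraries (edgeR adjusted p = 0.00688, but 0.0574 with DESeq2) and 0.37 ± 0.08 over all 6 (adjusted p = 0.632). The authors' deposited table gives Itgb8 as 0.16 (adjusted p = 0.52), that is higher on the side with more Trim28. Its mean level there is 243, against a mean of 650 counts here. Lrrc32, which encodes GARP, the Treg anchor of latent TGF-beta, stood at 473, 498 and 518 CPM in the sufficient and 455, 461 and 389 in the deficient libraries, again with no overlap by label. It passed neither in the 4 libraries (-0.08 ± 0.05, edgeR adjusted p = 0.32) nor over all 6 (-0.19 ± 0.08, adjusted p = 0.632). The third ligand gene, Tgfb2, had 0 to 4 counts per library, around the 3 counts (0.273 to 0.301 CPM) that a count of 0 allows.

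Of 9 tested receptor genes of the wider family 1 passed in the 4 libraries (11.1%, below the 17.4% of all genes), Acvr1c, which encodes the type I receptor ALK7. It stood at 7.82, 6.19 and 18.4 CPM in S1, S2 and S3 and at 16.7, 11.9 and 7.64 in D1, D2 and D3, with the 3 low-Trim28 libraries highest (log2 fold change 1.03 ± 0.20, edgeR adjusted p = 0.002). Over all 6 it was 0.15 ± 0.52 (adjusted p = 0.949). Both tested SMADs of the bone morphogenetic protein branch were higher, Smad1 by 0.45 ± 0.11 (edgeR adjusted p = 0.0104) and Smad5 by 0.27 ± 0.07 (adjusted p = 0.0118) on the log2 scale. Over all 6 they were at 0.19 ± 0.15 (adjusted p = 0.731) and 0.13 ± 0.09 (adjusted p = 0.695). Both calls were lost with DESeq2 and without S2, and that of Smad5 also without D2. Smad6 and Smad9 had 0 or 1 count per library.

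Among 23 tested regulators 3 were higher and 1 lower in the 4 libraries, which at 17.4% is the share of all genes called. Itch, a ubiquitin ligase gene, rose by 0.34 ± 0.06 log2 units (edgeR adjusted p = 0.000874), from 132 and 130 CPM in S1 and S2 to 170.02 and 159 in D1 and D2, with S3 at 168 and D3 at 142. Trim33, a paralog of Trim28 whose product binds SMADs, stood 0.22 ± 0.06 log2 units higher (edgeR adjusted p = 0.0137), Ldlrad4, which encodes an inhibitor of SMAD activation, likewise 0.22 ± 0.06 (adjusted p = 0.0318), and Ncor1, a co-repressor that works with SKI, had a value of -0.21 ± 0.05 (adjusted p = 0.0108). Ldlrad4 stood at 82.3, 80.4 and 79.7 CPM in S1, S2 and S3 and at 95.6, 92.6 and 71.1 in D1, D2 and D3. Only D1 and D2 were thus high for Ldlrad4, and D3 was the lowest library. Ncor1 stood at 658, 643 and 547 CPM in S1, S2 and S3 and at 574, 544 and 572 in D1, D2 and D3. For Ncor1, S3, with low Trim28, and D3, with high Trim28, thus both lay with D1 and D2. The call of Ldlrad4 was lost without each single library, with DESeq2 and with upper-quartile factors, that of Trim33 without S2 or D2 and with DESeq2, and that of Ncor1 without D2. Over all 6 none of these passed, at 0.13 ± 0.11 for Itch (edgeR adjusted p = 0.767), 0.11 ± 0.07 for Trim33 (0.697), 0.10 ± 0.11 for Ldlrad4 (0.82) and -0.13 ± 0.07 for Ncor1 (0.654).

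Of 14 tested genes known as targets of TGF-beta family signalling 1 was higher and 4 were lower in the 4 libraries, where 9.96% and 7.39% of all genes were. Id3, which encodes an inhibitor of E proteins, stood at 111, 99.9 and 66.8 CPM in S1, S2 and S3 and at 66.3, 69.5 and 90.2 in D1, D2 and D3, and its log2 fold change in the 4 libraries was -0.63 ± 0.07 (edgeR adjusted p = 2.62e-05). Its values were low in the 3 libraries with low Trim28. Junb, an AP-1 factor gene, fell by 0.31 ± 0.05 log2 units (edgeR adjusted p = 0.000622), and Foxp3, the lineage factor of Treg, by 0.25 ± 0.05 (adjusted p = 0.00509). For both genes S3, with low Trim28, and D3, with high Trim28, lay nearer to D1 and D2 than to S1 and S2. Junb stood at 231, 234 and 195 CPM in S1, S2 and S3 and at 188, 186 and 189 in D1, D2 and D3. Foxp3 stood at 747, 697 and 621 CPM and at 614, 596 and 612 CPM in the same libraries. Myc, a growth regulator gene named after its values were seen, had a value of -0.32 ± 0.09 (adjusted p = 0.0358), and its call was lost without S2 and with library totals. The Myc values of S3 (164 CPM) and D3 (170.4 CPM) also lay with D1 and D2, at 159 and 170.1, below 184 and 228 in S1 and S2. Runx1, which encodes a partner of FOXP3, rose by 0.20 ± 0.05 (adjusted p = 0.0197), and its call was lost without S1, S2 or D2 and with DESeq2. For Runx1, D3 at 138 CPM lay with S1 and S2 at 136.8 and 136.5, below D1 and D2 at 153 and 160. S3 lay between, at 145 CPM. Itgae, the CD103 integrin gene and a SMAD3 target, ran from 89.4 to 130 CPM and did not pass (0.10 ± 0.06, adjusted p = 0.294; over all 6 -0.07 ± 0.13, adjusted p = 0.906). Over all 6 the called targets did not pass either, at -0.30 ± 0.22 for Id3 (edgeR adjusted p = 0.728), -0.23 ± 0.07 for Junb (0.632), -0.18 ± 0.07 for Foxp3 (0.632), -0.21 ± 0.11 for Myc (0.654) and 0.10 ± 0.07 for Runx1 (0.695). Targets thus moved in both directions, with a median log2 fold change of -0.12. The list was not divided into targets that the pathway raises and lowers, so this median gives no direction of signalling.

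**Figure D4:**
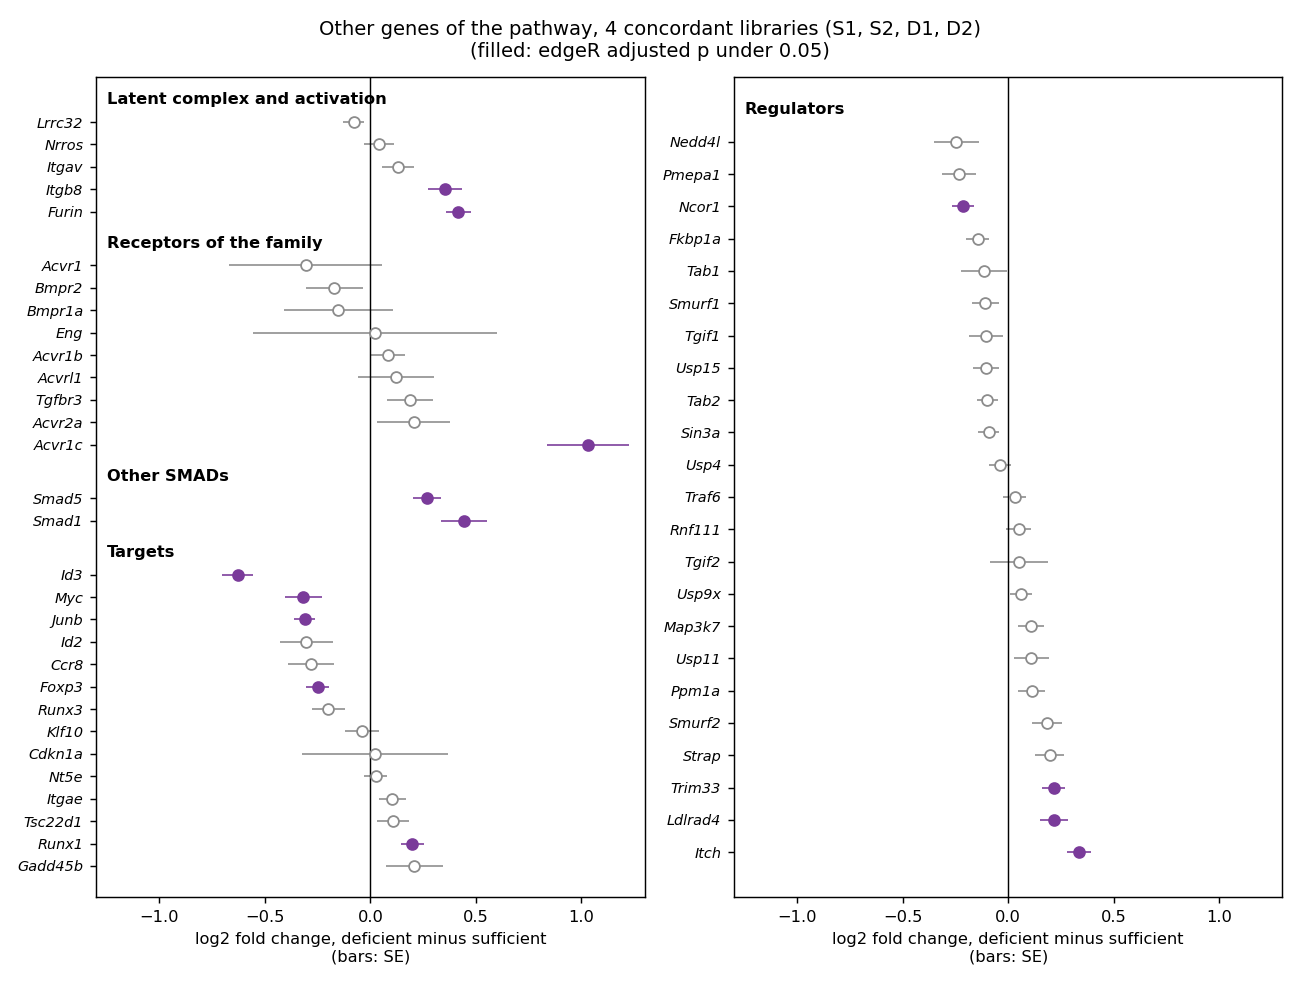
Log2 fold change (deficient minus sufficient) with its SE for the 53 other pathway genes tested in the 4 concordant libraries, by role, filled where the edgeR adjusted p was under 0.05. The 14 filled points include both other SMAD genes, and run from -0.63 for Id3 to 1.03 for Acvr1c.

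The genes of at least 10 CPM whose log2 level was most like that of a member across the 6 libraries were Mthfd2, Il21r and Hvcn1 for Tgfb3 (Pearson r 0.992, 0.987 and 0.985), Ppia, Paip1 and Rcn1 for Skil (0.993, 0.993 and 0.992), and Gata3, Rps6ka1 and Mfsd10 for Smad2 (0.994, 0.993 and 0.993). By the chi-square per degree of freedom given below, S1 and S2 lay close together (2.81), as did S3, D1 and D2 (2.43 to 3.10). D3 stood apart from both sets, at 7.22 to 8.65. With n = 6 libraries so grouped, and 8943 or 8944 genes searched, high values are common and describe these libraries only. Ppia has many processed pseudogenes, and whether its counts hold reads from them was not tested.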

How the data were processed

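The submitters' processing notes name mm10 as the build and, with no order or role, DESeq2, HTSeq (0.7.2) and TopHat2 (2.1.1). Neither the annotation release nor the strandedness of counting is stated. The deposited count table holds raw counts per Ensembl gene for 6 libraries. The authors' deposited table of their own comparison gives, per the file headers, the mean signal, the log2 fold change and its SE, a score for the test, its p-value, the adjusted p and a q-value. Symbols matched 32919 of 37991 gene identifiers, and rows without one held 0.603% of counts. Exon lengths are unions of GENCODE M21 exons on the same assembly, which may differ from the authors' gene models.

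Groups and replicate numbers came from the sample titles. The test was that of edgeR 4.0.16 under R 4.3.3 (quasi-likelihood test, robust dispersion, TMM factors, filterByExpr) on the whole table, with Benjamini-Hochberg adjustment over all genes tested at 0.05. SEs are the fold change over the root of F. CPM and RPKM used library totals. Alternatives were DESeq2 1.42.0, limma-voom (limma 3.58.1), other scaling factors and filters, a non-robust fit, a replicate block and leaving out libraries. On simulated counts with all 6 libraries (12158 genes) 74% of 2-fold and 9% of 1.25-fold changes were recovered, and with the 4 libraries (12183 genes) 95% and 37%. Far fewer genes were changed in the simulation than were called in the 4 libraries, so these shares need not hold for that fit. No pair of libraries was within sampling noise, the lowest chi-square per degree of freedom being 2.43, for S3 and D1, which differ in label. It was 2.49 for D1 and D2 and 2.81 for S1 and S2. S3 stood at 11.5 from S1 and 13.4 from S2. D3 stood at 7.22 and 7.64 from S1 and S2, and at 8.49, 8.65 and 8.62 from S3, D1 and D2.

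The members and the lists of pathway genes and markers were chosen with earlier results of these data known. Genes named were all members, Trim28, Tgfb2, Lrrc32, Itgb8, Itgae, up to 4 called genes per role class by smallest adjusted p in the 4 libraries, and 3 genes most alike to each of Tgfb3, Skil and Smad2. Beyond this rule, Myc, Smad6 and Smad9 were named, Myc after its values were seen. Markers were named to describe cell content.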

Additional observations from a re-analysis of the deposited data

How the results depend on the processing

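Over all 6 libraries, the number of genes called was 2, but 6 with DESeq2, 1 with limma-voom or the non-robust fit, and 0 with the replicate block (705 genes at an unadjusted p under 0.05 by edgeR), 1 to 807 without single libraries (highest without S3) and 2114 without both libraries in which Trim28 goes against the label. Called members were 0 to 4 without single libraries (4 without S3) and 7 without both. Without both, the log2 fold change of Tgfbr2 was 0.03 in place of -0.01. Without single libraries it ran from -0.03 to 0.03 (0.01 without S1 and 0.03 without D3), that of Tgfb3 from -0.24 (without D2) to 0.91, and that of Smad7 from -0.02 (without S2) to 0.23. In the 4 libraries the 2114 called genes became 942 with DESeq2, and the 7 called members 3. Without single libraries 1632 to 1717 genes and 4 to 6 members were called (4 without S1), and Tgfbr2 ran from -0.01 (without S2) to 0.08. Where no cause is named, the cause was not tested. With upper-quartile factors the split of calls in the 4 libraries was 1046 higher and 1248 lower in place of 1214 and 900. The replicate block gave 2359 genes and the same number of called members, 7. The deviations of libraries with the same number had correlations of -0.36, -0.29 and -0.61 over all 6, where both doubted libraries bear the number 3, and of -0.02 in the 4, so the numbers were not taken to pair libraries. The count of 5 members without overlap by Trim28 level was recomputed with TMM, RLE and upper-quartile factors, alternatives chosen after seeing the data, and was 5 with each. Of 160 member values over all 6 libraries 144 kept their direction and side of the threshold, 11 gained a call and 5 changed sign, and of 130 values in the 4 libraries 115 stayed, 13 lost the call, 1 gained it and 1 changed sign. Depth limits Tgfb3, at 10 to 42 counts per library.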
